A study of Mus musculus with 48 samples.

Results

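Ribosome-bound RNA was set against EU-labeled RNA of the mouse superior colliculus (SC) at postnatal day 10 (P10), over 15733 expressed genes of the 54331 in the deposited table. The comparison uses 3 axon-TRAP libraries and 3 EU libraries, 6 of the 48 libraries of the series, and its members are all genes that passed the filter on low counts, of 25623 with at least 1 count in these 6 libraries. All 6 came from wild-type SC of P10 mice that had no axotomy. The most similar comparison is that of axon-TRAP and EU libraries of the same region and genotype at P14, with 3 libraries per capture. The study concerns polyadenylated RNA in axons of retinal ganglion cells, the neurons that send the output of the retina to the brain.

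The superior colliculus is a midbrain centre that receives retinal ganglion cell axons, while the cell bodies stay in the eye. Axon-TRAP pulls down tagged ribosomes, so it samples RNA that is being held or translated by them. In the published method the tag sits on the ribosomal protein Rpl22 and is switched on by a Cre driver; the labels of these libraries name neither the tag nor the driver. EU (5-ethynyl uridine) is a modified nucleoside that cells build into RNA as they transcribe it. It was given into the vitreous of the eye, and the tagged RNA was then biotinylated with a Click-iT kit and bound to streptavidin beads from pooled colliculi of 3 animals. The labels give this protocol for every library and say nothing of separate animals or pools per capture, so the p-values measure the spread between these libraries, which may be technical.

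The sequences of a few microRNAs are given first, because the genes from which they are cut were among the RNAs that set the captures furthest apart. A microRNA host gene makes a long noncoding transcript from which hairpins are excised in the nucleus and trimmed to mature microRNAs, which pair with target mRNAs mainly through their seed, bases 2 to 8 of the mature RNA. The libraries measured the host transcripts, not the mature microRNAs. The host Mirg (chr12:109729764-109749460, plus strand) holds 14 hairpins, C78859 (chr8:94322158-94328100, plus strand) holds Mir138-2, a hairpin of miR-138, and A230057D06Rik (chr7:61704519-61928690, minus strand) holds 7 hairpins of the miR-344 family. Below are mature sequences from RefSeq (GRCm38.p6), 5′ to 3′, with the seed in capitals. The last 3 share 1 seed although miR-410 lies in Mirg and the other pair in A230057D06Rik.
mmu-miR-138-5p: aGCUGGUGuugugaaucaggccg
mmu-miR-134-5p: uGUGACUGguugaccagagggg
mmu-miR-382-5p: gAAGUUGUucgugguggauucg
mmu-miR-410-3p: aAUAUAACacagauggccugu
mmu-miR-344d-3p: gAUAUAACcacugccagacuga
mmu-miR-344e-3p: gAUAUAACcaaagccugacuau

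The libraries differed in depth and content before any gene was compared. The TRAP libraries held 25.6, 14.3 and 24.1 M estimated counts (M, mega) (replicates 1 to 3), and the EU libraries 8.61, 11.4 and 10.2 M. Rank correlations across genes were 0.892 to 0.920 within a capture and 0.769 to 0.848 between captures. The gene CT010467.1 took 27.9% of EU replicate 2 and at most 0.923% of any other library, and mitochondrially encoded genes took 3.14% of EU replicate 3. TRAP replicate 3 was the highest of the TRAP libraries for 626 of the 1045 genes called higher. Rpl22 had 92.3, 97.8 and 52.5 CPM (counts scaled to library size, with TMM factors) in TRAP and 127, 178 and 178 CPM in EU, a difference that was not called (adjusted p = 0.084), and a count of Rpl22 does not tell whether a tag was present.

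Of the 15733 genes, 1045 (6.64%) were higher in TRAP and 1735 (11.0%) were lower at an adjusted p under 0.05 (edgeR quasi-likelihood test, Benjamini-Hochberg adjustment over all tested genes). The values of the 3 TRAP libraries lay all above or all below those of the 3 EU libraries for 6126 genes (38.9%), called or not. The split of the calls was different with limma on log2(TPM + 1), which changed unit, scaling and test together and called 682 higher and 2377 lower. The median log2 fold change over all genes was -0.08, and it is the value against which the medians below are read. The number of calls depended on single EU libraries. Without EU replicate 1 there were 378 higher and 883 lower genes, without EU replicate 2 there were 507 and 1020, and without EU replicate 3 there were 602 and 1168. Without TRAP replicate 3 there were 835 and 1129.

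Noncoding RNA took a smaller share of TRAP than of EU. The share of long noncoding and unconfirmed genes in all counts, with no filter, was 0.569%, 0.717% and 0.577% in the TRAP libraries, against 3.34%, 2.45% and 3.47% in the EU libraries. No TRAP library came near an EU library in this share. In the tested set, 15 of these genes were higher and 650 lower of 1575, with a median log2 fold change of -2.2, and 446 were lower without EU replicate 1. This count is a description, because 904 of the 1575 reached the filter level in all EU libraries but not in all TRAP libraries. Of the 471 that reached it in all TRAP libraries, 47 were lower and 15 higher. Protein-coding genes were 1019 higher and 963 lower of 13724, with a median of 0.04. Their split moved with the setting, to 638 higher and 1481 lower with limma on log2(TPM + 1) and 1239 and 710 with the length trend removed. Without EU replicates 1, 2 and 3 it was 362 and 366, 490 and 432, and 585 and 541, and without TRAP replicate 3 it was 813 and 518.

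Several microRNA hosts were nearly missing from TRAP. Mirg had 0.505, 0.426 and 0.252 CPM in TRAP and 82.2, 71.4 and 80.1 CPM in EU, a log2 fold change of -7.59 ± 0.5 (SE; adjusted p = 7.2e-05). Its neighbour on chromosome 12, Rian, had 1.73, 4.82 and 0.755 CPM in TRAP, against 135, 160 and 140 CPM in EU (log2 fold change -5.92, adjusted p = 0.00095). Both belong to the imprinted Dlk1-Dio3 domain, whose noncoding RNAs come from the maternal chromosome. C78859 had 0, 0.213 and 0 CPM in TRAP and 61, 42.2 and 34.1 CPM in EU (adjusted p = 0.00058). No fold is given for it because too few TRAP counts remain to set one.

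A230057D06Rik had 0.361, 0.284 and 0.151 CPM in TRAP, against 20.8, 28.9 and 28.1 CPM in EU, a log2 fold change of -6.55 ± 0.63 (adjusted p = 0.00046). All TRAP values of these 4 hosts were below all EU values. Over all 33 tested noncoding genes that hold a RefSeq hairpin, 16 were lower and 0 higher, with a median of -2.31, and the 16 hold 45 hairpins. Many of these genes passed the filter through EU, so this count is a description. Of all 1575 long noncoding and unconfirmed genes tested, 41.3% were lower, with a median of -2.2, near that of the hosts. Low TRAP values did not extend to every host. Mir9-3hg, which holds a hairpin of miR-9, had 80.8, 38.7 and 64.9 CPM in TRAP and 42.2, 97.7 and 49.6 CPM in EU, overlapping groups with a log2 fold change of -0.04.

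Other long RNAs that stay in the nucleus followed the same direction. Snhg14, the long host of small nucleolar RNAs that runs antisense to Ube3a, had 0.938, 0.426 and 0.755 CPM in TRAP and 135, 90 and 114 CPM in EU (log2 fold change -7.27 ± 0.5, adjusted p = 7.2e-05). Miat, a nuclear RNA of neurons, had 4.48, 1.21 and 0.755 CPM in TRAP, against 132, 305 and 144 CPM in EU (log2 fold change -6.46 ± 0.75, adjusted p = 0.0011). Whether reads of the overlapping strand entered these counts is unknown, since the strand setting of the counting is not given in the sources used here. In the list of 18 nuclear noncoding RNAs, 9 were lower (50.0%) and 0 higher, with a median of -4.81. Of all long noncoding and unconfirmed genes 41.3% were lower, and of all genes 11.0%. Most long noncoding and unconfirmed genes reached the filter level in all EU but not all TRAP libraries, so the list count is a description. The fits that left out 1 library each called 9 or 10 of the list lower. Without TRAP replicate 3, 1 was called higher.

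**Figure D1:**
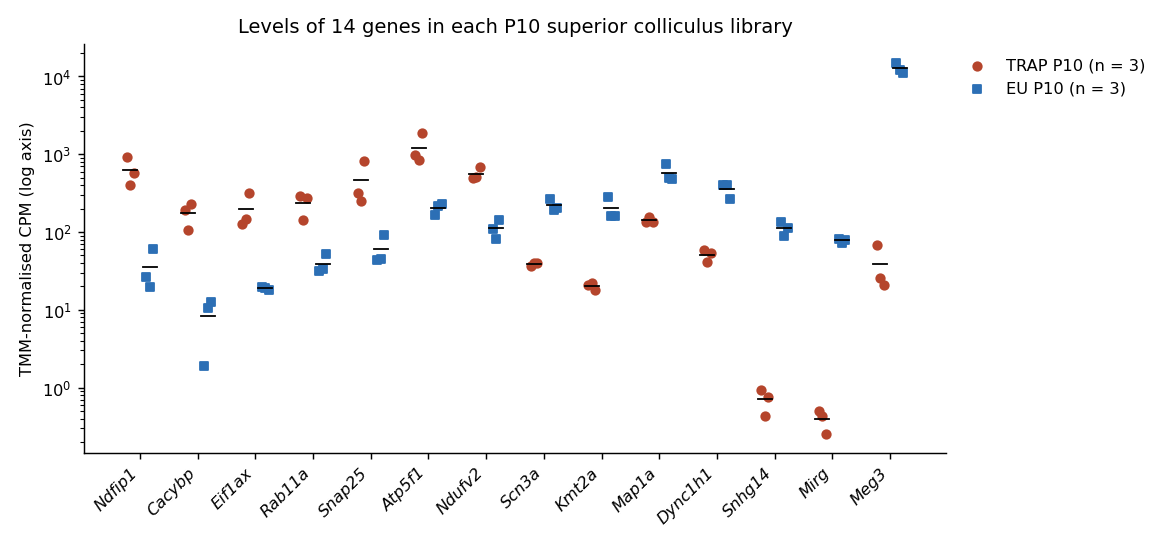
TMM-normalised CPM (log axis) of 14 genes in each P10 library, TRAP as circles and EU as squares, 3 libraries each. Ndfip1 to Ndufv2 lie higher in TRAP, and Scn3a to Meg3 lie higher in EU, with no overlap between the captures.

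Noncoding genes differed by where they lie. Annotation marks many short transcripts that lie inside introns of coding genes on the same strand, as sense-intronic RNA or as TEC (transcripts awaiting experimental proof). Of 1883 such intronic genes in the table that touch no coding exon, 254, 185 and 160 had a count in the TRAP libraries, against 809, 786 and 998 in the EU libraries, although each EU library was shallower than each TRAP library. They summed to 315, 293 and 281 CPM in TRAP, against 3340, 2450 and 3550 CPM in EU. There were 341 intronic genes with a count in all EU libraries and none in any TRAP library, and 1 with the reverse pattern.

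Noncoding genes that do not lie within a coding gene had a smaller gap. The 8810 of them summed to 4460, 6120 and 6020 CPM in TRAP and 25900, 23100 and 22800 CPM in EU, and the largest part of the EU sum was Meg3. Those inside a coding gene on the opposite strand only, 2162 genes, summed to 462, 831 and 685 CPM in TRAP and 2460, 2180 and 2220 CPM in EU. In the tested set, 289 of 338 intronic genes were lower and 0 higher, against 87 of 201 opposite-strand genes and 263 of 1019 that are not within a coding gene. These counts are descriptions: 312 of the 338 intronic genes reached the filter level in all EU libraries but not in all TRAP libraries, so that a low TRAP value was part of being tested. Of the 16 intronic genes that reached it in all TRAP libraries, 5 were lower and 0 higher. The median log2 fold change of the intronic genes was -7.55 as fitted, and -5.77 with the 172 genes that had no TRAP count set to a floor of 3 counts over the TRAP libraries.

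The coding genes around the called transcripts had smaller fold changes. The transcripts were chosen for being called lower and the coding genes were not, so this contrast is a description. The 289 called intronic genes lie in 224 coding genes, of which 38 were lower, 7 higher, 171 not called and 8 not tested, with a median log2 fold change of -0.58. Gm47031, an intronic transcript of Mgat4c, had 1.37, 1.42 and 0.906 CPM in TRAP, against 58.8, 67 and 45.1 CPM in EU (log2 fold change -5.52 ± 0.48, adjusted p = 0.00023), while Mgat4c itself was not called (-1.57, adjusted p = 0.3). Gm37954 in Srgap2, a regulator of neurite and spine shape, had 1.59, 0.497 and 0.654 CPM in TRAP and 29.1, 37.2 and 27.9 CPM in EU, a log2 fold change of -5.06 ± 0.61, against -0.98 (adjusted p = 0.09) for Srgap2.

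Map1b, a microtubule protein of growing axons, shows the same order with its own mRNA called. 5330431K02Rik inside Map1b had 0.902, 0 and 0 CPM in TRAP, against 85.5, 35.1 and 60.1 CPM in EU (log2 fold change -7.43 ± 1.19, adjusted p = 0.0046), and Map1b had a log2 fold change of -1.67 (adjusted p = 0.011). The call of Map1b ended without EU replicate 1 (adjusted p = 0.058) and without EU replicate 2 (0.055). Peg13, an imprinted noncoding gene inside Trappc9, was an exception, with 80.9, 59 and 85.6 CPM in TRAP and 95.9, 116 and 161 CPM in EU, and it was not called (-0.72, adjusted p = 0.18). The libraries are of polyadenylated RNA, and whether the reads of such transcripts come from unspliced host RNA was not tested.

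**Figure D2:**
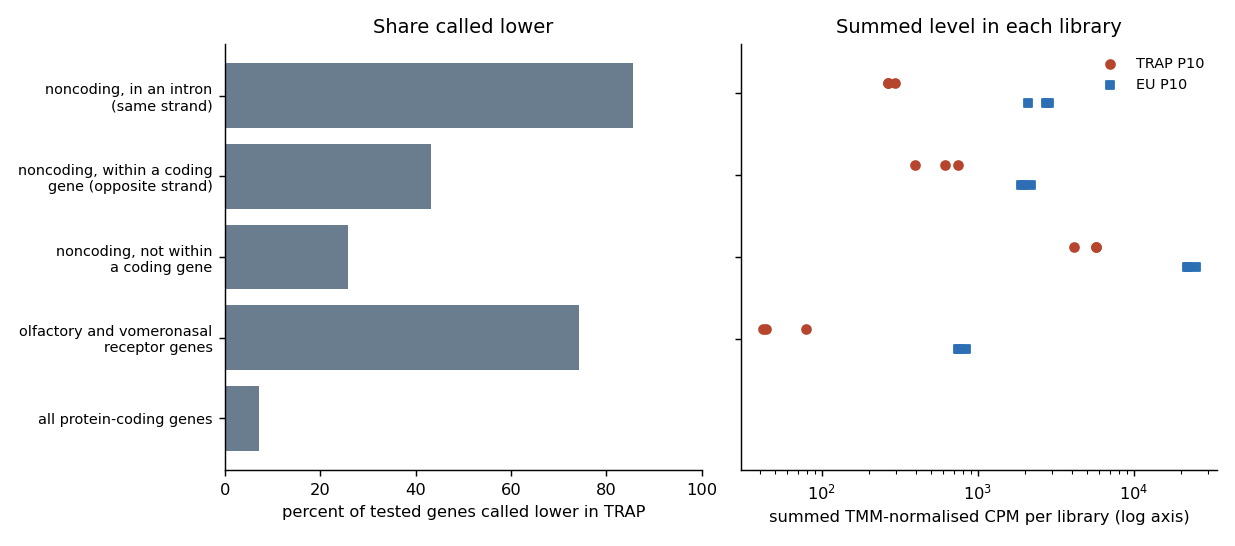
Left, percent of tested genes called lower in TRAP in each class; right, summed TMM-normalised CPM of the tested genes of the top 4 classes in every library (log axis), TRAP as circles and EU as squares. Intronic same-strand genes have the highest share called lower of the classes shown (85.5%, against 11.0% of all genes), and in each of the 4 classes the 3 TRAP sums lie below the 3 EU sums. The shares are descriptions. Of 338 intronic genes 312, and of 128 receptor genes 115, reached the filter level in all EU libraries but not in all TRAP libraries.

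Olfactory and vomeronasal receptor genes, which encode the odour and pheromone receptors of the nose, were a coding class with few TRAP counts. They were singled out after their values were seen. Of 1962 receptor genes in the table, 156, 132 and 113 had a count in the TRAP libraries, against 288, 286 and 316 in the EU libraries. They summed to 52.4, 88.1 and 53.9 CPM in TRAP and 822, 836 and 929 CPM in EU. Of the 128 tested, 95 were lower and 0 higher, and 115 of the 128 reached the filter level in all EU libraries but not in all TRAP libraries, so this count too is a description. Of the 9 that reached it in all TRAP libraries, 3 were lower and 0 higher. The values lay lower in TRAP without overlap for 120 of the 128. Without EU replicate 1 there were 62 called lower, the lowest of the fits that left out 1 library, and 44 with a replicate block.

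Olfr1336 had 1.23, 0.78 and 1.26 CPM in TRAP and 55.7, 56 and 54.3 CPM in EU (log2 fold change -5.64 ± 0.47, adjusted p = 0.00017). The EU libraries lay close together on this gene, and each TRAP library lay far below them. Olfr365 had 1.44, 2.41 and 0.503 CPM in TRAP and 51, 55.3 and 55.4 CPM in EU (-5.22 ± 0.6, adjusted p = 0.0011). Vmn1r229 had 0.974, 1.56 and 1.31 CPM in TRAP and 28.2, 29.9 and 34.2 CPM in EU (-4.58 ± 0.51, adjusted p = 0.00095). A receptor with somewhat lower EU values that was not called is Olfr509, with 1.66, 15.3 and 1.81 CPM in TRAP and 22.1, 18 and 19.2 CPM in EU, where TRAP replicate 2 was high. Most receptor genes have near copies, so counts may be shared among them.

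Among protein-coding genes the calls followed the length of the coding sequence. Genes higher in TRAP had a median coding length of 783 bases, those lower a median of 2390, and those not called 1410. In the quintile of genes with the shortest coding sequences (99 to 741 bases), 452 were higher and 79 lower, with a median log2 fold change of 0.59. In the quintile with the longest (2529 to 105639 bases), 20 were higher and 461 lower, with a median of -0.7. The medians of the quintiles in between fell in order, 0.41, 0.11 and -0.18. The length of the 3′ UTR showed less of an order, with medians of 0.13, 0.21, 0.17, 0.02 and -0.33 from the shortest quintile to the longest.

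The length relation is a description over genes, and the libraries it compares also differ in depth and RNA input. With each library's trend on transcript length removed, the shortest quintile had 509 higher and 89 lower genes and the longest 66 higher and 274 lower. Without EU replicate 1 the shortest quintile had 191 higher and 23 lower genes and the longest 5 higher and 186 lower. Without EU replicate 2 the shortest had 249 higher and 37 lower and the longest 11 and 201. Without EU replicate 3 the shortest had 270 and 50 and the longest 10 and 261. Without TRAP replicate 1 the longest had 46 higher and 446 lower, without TRAP replicate 2 it had 31 and 278, and without TRAP replicate 3 the shortest had 363 and 36 and the longest 17 and 253. In each of these fits higher genes outnumbered lower ones in the shortest quintile and the reverse held in the longest. Whether RNA integrity or fragment coverage differed between the captures was not tested.

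**Figure D3:**
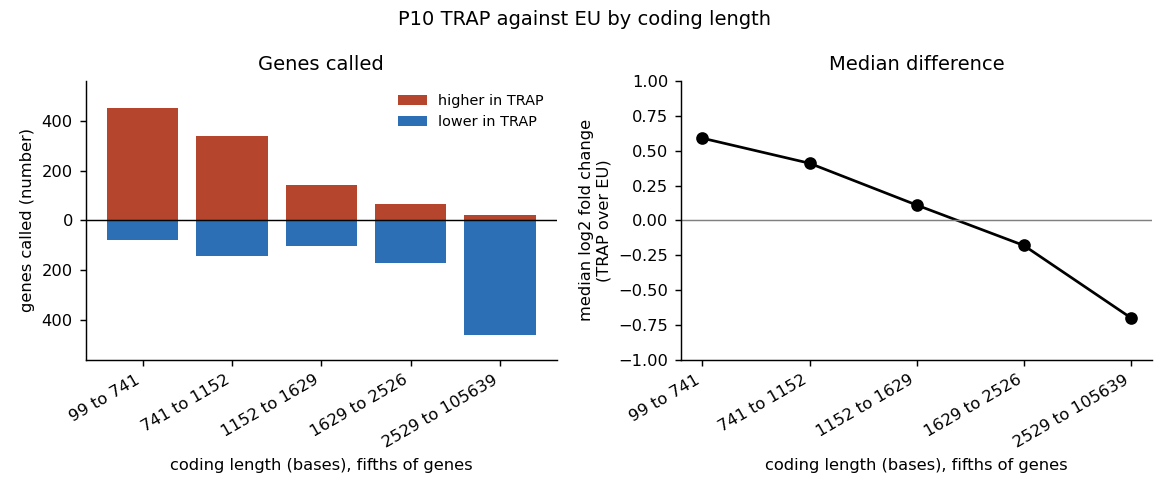
Left, number of protein-coding genes called higher or lower in P10 TRAP than in P10 EU by quintile of coding length (bases); right, median log2 fold change of each quintile. Calls pass from 452 higher and 79 lower in the shortest quintile to 20 higher and 461 lower in the longest.

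The genes described next were among the 10 largest rises and kept their call in all 13 alternatives. Ndfip1, an adaptor that recruits Nedd4-family ubiquitin ligases, had 917, 400 and 568 CPM in TRAP, against 26.5, 19.7 and 60.5 CPM in EU (log2 fold change 4.14 ± 0.54, adjusted p = 0.0016). Cacybp, which binds calcyclin and takes part in ubiquitin-dependent turnover, had 193, 105 and 227 CPM in TRAP and 1.88, 10.4 and 12.7 CPM in EU (4.38 ± 0.66, adjusted p = 0.0028). In both genes the captures were far from overlapping. Pip4p2, a phosphoinositide phosphatase, had 49.6, 137 and 695 CPM in TRAP, with replicate 3 far above the others, and 7.85, 5.57 and 3.98 CPM in EU (5.67 ± 0.96, adjusted p = 0.0056).

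Tspan12, a tetraspanin of the Norrin receptor complex, had 24.4, 66.5 and 77.3 CPM in TRAP and 3.98, 1.19 and 3.57 CPM in EU (4.26 ± 0.63, adjusted p = 0.0026). Nudt10, a diphosphoinositol phosphatase, had 22.4, 16.5 and 55.3 CPM in TRAP and 0.995, 1.99 and 1.38 CPM in EU (4.42 ± 0.65, adjusted p = 0.0025). Of the other 5 of the 10, which lost their call in some alternatives, the gap junction gene Gja1 had the largest fitted value and a wide spread: 40.5, 313 and 2640 CPM in TRAP, against 5.53, 14.2 and 14.4 CPM in EU. Its call (6.45 ± 1.5, adjusted p = 0.026) ended without any 1 of the EU libraries, with adjusted p = 0.066, 0.076 and 0.085 without replicates 1, 2 and 3.

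Genes of mitochondrial energy supply were higher in TRAP where they were called. The ATP synthase makes ATP from the proton gradient that the respiratory complexes build. Of 16 ATP synthase genes, 4 were higher and 0 lower, with a median log2 fold change of 0.66, and 3 were higher without any 1 of the EU libraries. Atp5f1, a stalk subunit, had 976, 834 and 1850 CPM in TRAP and 164, 216 and 230 CPM in EU (2.58 ± 0.42, adjusted p = 0.0035). Complex I, the NADH dehydrogenase, had 4 higher (11.1%) and 0 lower of 36 genes (median 0.51), and 11 were higher without TRAP replicate 1. Its genes are short, with a median coding length of 433 bases, and 16.5% of the shortest quintile of coding length were higher. The complex I sums overlapped, with 7756, 14360 and 16550 CPM in TRAP and 9296, 6888 and 7236 CPM in EU. Ndufv2, which carries an iron-sulfur cluster, had 498, 508 and 678 CPM in TRAP and 108, 82.2 and 144 CPM in EU (2.33 ± 0.37, adjusted p = 0.0033). Complexes II to IV had 6 higher (23.1%) and 0 lower of 26 (median 0.37), and their median coding length was 333 bases. They had 2, 3 and 3 higher without EU replicates 1, 2 and 3, and 10 without TRAP replicate 1. Their sums overlapped too, with 9687, 19020 and 23460 CPM in TRAP and 10500, 9346 and 9159 CPM in EU.

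The citric acid cycle added Sucla2, a subunit of succinyl-CoA ligase, with 90.1, 62.6 and 99.5 CPM in TRAP and 4.86, 3.18 and 17.4 CPM in EU (3.3 ± 0.62, adjusted p = 0.0062). Mitochondrial ribosomal protein genes, which build the ribosomes inside mitochondria, had 22 higher (28.2%, against 6.64% of all genes) and 1 lower of 78 (median 0.78). Their median coding length was 582 bases, and 16.5% of the shortest quintile of coding length were higher. There were 10, 10 and 9 higher without EU replicates 1, 2 and 3. Mrps6 had 187, 187 and 314 CPM in TRAP and 47.6, 74.9 and 53.1 CPM in EU (1.97 ± 0.37, adjusted p = 0.0068). RNA that mitochondria make themselves lay the other way, with a median of -5.4 over 12 genes, 1 of which was called lower. The spread between EU libraries was wide: mt-Cytb had 26.1, 4.11 and 2.72 CPM in TRAP and 194, 196 and 1910 CPM in EU (adjusted p = 0.025, and 0.074 without TRAP replicate 3). Without EU replicate 3 the median of the 12 was -2.83, and without TRAP replicate 1 it was -8.59 with 5 called lower. Called lower were 0 without TRAP replicate 3 and 7 by limma. Nuclear copies of mitochondrial genes may share these reads.

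Actin and the proteins that turn it over were the list with the highest median, 1.42. Of its 25 genes 10 were higher (40.0%, against 6.64% of all genes) and 0 lower. The median at P14 was 0.47. The list summed to 13120, 34020 and 33710 CPM in TRAP and 13280, 8887 and 8627 CPM in EU, so TRAP replicate 1 lay within the EU range. The count was carried by few libraries, with 1 higher without EU replicate 1, 2 without EU replicate 2 and 6 without EU replicate 3. Cfl2, a cofilin that severs actin filaments, had 107, 51.2 and 70 CPM in TRAP and 9.28, 5.37 and 14.8 CPM in EU (2.95 ± 0.49, adjusted p = 0.004), and all 13 alternatives kept its call. Twf1, which caps filaments and binds actin monomers, had 93.3, 655 and 911 CPM in TRAP and 73.7, 45.3 and 77.5 CPM in EU (3.08 ± 0.69, adjusted p = 0.014). Its call ended without EU replicate 1 (adjusted p = 0.059) and without EU replicate 2 (0.057). Counts of actin genes may be shared with pseudogenes.

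Protein synthesis, entry into the secretory path and membrane traffic gave scattered rises. Translation factors had 9 higher (13.4%, against 6.64% of all genes) and 4 lower (5.97%, against 11.0%) of 67 (median 0.24). Without EU replicates 1, 2 and 3 there were 2, 3 and 5 higher and 1, 2 and 2 lower, and without TRAP replicate 3 there were 2 lower. Eif1ax, which scans for the start codon, had 127, 148 and 314 CPM in TRAP and 19.6, 19.2 and 18.1 CPM in EU (3.37 ± 0.43, adjusted p = 0.0016). Eif4g3, a long scaffold of the cap-binding complex, lay opposite, with 65.5, 76.9 and 62 CPM in TRAP and 238, 210 and 192 CPM in EU (-1.65 ± 0.32, adjusted p = 0.0076). Cytoplasmic ribosomal protein genes had 5 higher and 2 lower of 78 with a median of 0.12, close to that of all genes, with 1 higher without any 1 of the EU libraries and 14 without TRAP replicate 1. Many of these genes have processed pseudogenes that may share reads.

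In the group of the ER translocon and signal peptidase, which bring new proteins into the endoplasmic reticulum, 7 of 29 were higher and 0 lower (median 0.74). The share higher was 24.1%, against 6.64% of all genes and 16.5% of the shortest quintile of coding length. The median coding length of the list was 678 bases. Without EU replicates 1, 2 and 3 there were 2, 4 and 4 higher. Ostc, a subunit of the oligosaccharyltransferase, had 122, 165 and 206 CPM in TRAP and 37.9, 24.5 and 27.1 CPM in EU (2.46 ± 0.37, adjusted p = 0.0029). Rab GTPases, which direct vesicles to their target membranes, had 7 higher (13.7%) and 0 lower of 51 (median 0.19). Their median coding length was 645 bases, and their share higher was below the 16.5% of the shortest quintile. There were 3 and 4 higher without EU replicates 1 and 2. Rab11a, a Rab of recycling endosomes, had 290, 143 and 276 CPM in TRAP and 31.9, 33.2 and 51.6 CPM in EU (2.6 ± 0.41, adjusted p = 0.0033). The proteasome had 5 higher (10.9%) and 0 lower of 46 (median 0.59). Its median coding length was 816 bases, and 12.4% of the quintile of 741 to 1152 bases were higher. It had 0, 2 and 3 higher without EU replicates 1, 2 and 3, and 11 without TRAP replicate 1.

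RNA-binding proteins split by member. Of 38 hnRNP and SR splicing factor genes 7 were higher (18.4%, against 6.64% of all genes) and 4 lower (10.5%, against 11.0%). Without EU replicates 1, 2 and 3 there were 2, 3 and 4 higher, and 1 lower each time. Hnrnpk had 352, 212 and 283 CPM in TRAP and 29.9, 36 and 67.4 CPM in EU (2.67 ± 0.42, adjusted p = 0.0033). The synaptic vesicle fusion list split too, with 3 higher (9.09%) and 2 lower (6.06%) of 33. Without any of the EU libraries 0 were lower, without EU replicate 1 there was 1 higher, and without TRAP replicates 1 and 2 there were 6 and 5 higher. Snap25, a SNARE of vesicle fusion, had 319, 248 and 818 CPM in TRAP and 43.4, 44.7 and 91.6 CPM in EU (2.95 ± 0.54, adjusted p = 0.0057). Syp, a vesicle membrane protein, had 195, 327 and 409 CPM in TRAP and 838, 1030 and 784 CPM in EU (-1.51 ± 0.38, adjusted p = 0.021), a call that ended without EU replicate 1 (0.066), EU replicate 2 (0.11), EU replicate 3 (0.052) and TRAP replicate 2 (0.059).

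Among the lists of coding genes, chromatin regulators had the most members lower by number. Of 66 tested, 23 were lower (34.8%, against 11.0% of all genes) and 0 higher, with a median log2 fold change of -1.06. The share lower was larger in sodium and calcium channels (50.0%) and in HECT-class and other giant ubiquitin ligases (35.0%). The median coding lengths of these lists were 5140, 5896 and 5443 bases, and 16.8% of the longest quintile of coding length were lower. Chromatin regulators called lower numbered 11, 10 and 14 without EU replicates 1, 2 and 3, and 15 and 14 without TRAP replicates 2 and 3. With the length trend removed 17 were lower and 0 higher. In that fit 8 sodium and calcium channels and 3 giant ligases were lower, down from 13 and 7, and 1 of each was higher. Kmt2a, a histone H3 lysine 4 methyltransferase, had 20.8, 22.2 and 17.9 CPM in TRAP and 284, 162 and 159 CPM in EU (-3.31 ± 0.39, adjusted p = 0.0011). Kmt2c, a relative of the same enzyme class, had 24.4, 20.4 and 8.81 CPM in TRAP and 124, 95.9 and 103 CPM in EU (-2.59 ± 0.44, adjusted p = 0.0043). Both kept their call in all 13 alternatives, and no TRAP value reached an EU value.

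Sodium and calcium channels and potassium channels gave unlike counts. Of 26 sodium and calcium channel genes 13 were lower and 0 higher (median -1.53, with 13 not called), and 6 and 7 were lower without EU replicates 1 and 2. Scn3a, a sodium channel of developing neurons, had 37.1, 39.4 and 39.8 CPM in TRAP and 266, 194 and 201 CPM in EU (-2.51 ± 0.34, adjusted p = 0.0018). Scn1a had 9.2, 11.6 and 7.6 CPM in TRAP and 74, 34.6 and 86 CPM in EU (-2.78 ± 0.45, adjusted p = 0.0038). Potassium channels had 7 lower and 2 higher of 72 and a median of -0.19, a share lower (9.72%) near the 11.0% of all genes, with 3 lower without EU replicate 1 or TRAP replicate 3 and 4 without EU replicate 3 or TRAP replicate 2.

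Some cytoskeletal and scaffold genes were lower, and most were not called. Of 29 microtubule-associated protein genes 7 were lower (24.1%, against 11.0% of all genes), 1 higher and 21 not called (median -0.71), with 3 lower without EU replicate 1 and 4 without EU replicate 2 or TRAP replicate 3. Macf1, which links microtubules to actin, had 45.5, 9.22 and 16.2 CPM in TRAP and 144, 167 and 137 CPM in EU (-2.65 ± 0.55, adjusted p = 0.0092). Ank3, which anchors channels at the axon initial segment, had 31.5, 40.2 and 15.9 CPM in TRAP and 144, 130 and 147 CPM in EU (-2.26 ± 0.41, adjusted p = 0.0054). Spectrins and ankyrins had 4 lower (33.3%), 0 higher and 8 not called of 12, with 2 lower without EU replicate 1 and 7 without TRAP replicate 1. Kif21a, a kinesin motor, had 23.7, 32.3 and 16.6 CPM in TRAP and 109, 93.2 and 103 CPM in EU (-2.07 ± 0.37, adjusted p = 0.0055). Kinesins had 4 lower and 0 higher of 37, a share lower (10.8%) near that of all genes, with 1 lower without EU replicate 1, EU replicate 2 or TRAP replicate 3 and 2 without EU replicate 3 or TRAP replicate 2. After removal of the length trend 3 microtubule-associated protein genes, 4 spectrins and ankyrins and 2 kinesins were lower, and 1, 0 and 1 were higher.

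Synaptic scaffolds of both sides were lower where called. Pclo, a giant scaffold of the presynaptic active zone, had 9.28, 15.8 and 4.18 CPM in TRAP and 51.2, 145 and 89.8 CPM in EU (-3.3 ± 0.57, adjusted p = 0.0047). Camk2a, the postsynaptic kinase whose mRNA is known from dendrites, had 16.3, 20.2 and 29.5 CPM in TRAP and 110, 151 and 123 CPM in EU (-2.54 ± 0.38, adjusted p = 0.0027). Postsynaptic scaffolds had 6 lower and 0 higher of 20 (3 lower without EU replicate 1), and active zone scaffolds 4 lower and 0 higher of 19 (2 lower without any 1 of the EU libraries or without TRAP replicate 2). Guidance receptors and ligands had 11 lower and 2 higher of 76, a share lower (14.5%) near the 11.0% of all genes. The median coding length of this list was 2991 bases, and 16.8% of the longest quintile of coding length were lower. Guidance genes called lower numbered 4, 5 and 7 without EU replicates 1, 2 and 3, and 5 without TRAP replicate 2 or 3. They numbered 5 with the length trend removed, a fit in which 4 were higher. Plxna2, a semaphorin co-receptor, had 18.8, 13.7 and 8.1 CPM in TRAP and 63.9, 71.4 and 53.2 CPM in EU (-2.21 ± 0.42, adjusted p = 0.0068).

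Among HECT-class and other giant ubiquitin ligases 7 of 20 were lower and 0 higher, with 3 lower without EU replicate 2 and 4 without TRAP replicate 3. Mycbp2, a giant ligase that limits axon growth and synapse formation, had 50.9, 40.5 and 44.3 CPM in TRAP and 172, 122 and 168 CPM in EU (-1.76 ± 0.34, adjusted p = 0.0068). Birc6 had 9.64, 8.3 and 15.5 CPM in TRAP and 83.1, 33.2 and 78.2 CPM in EU (-2.54 ± 0.47, adjusted p = 0.0061).

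**Figure D4:**
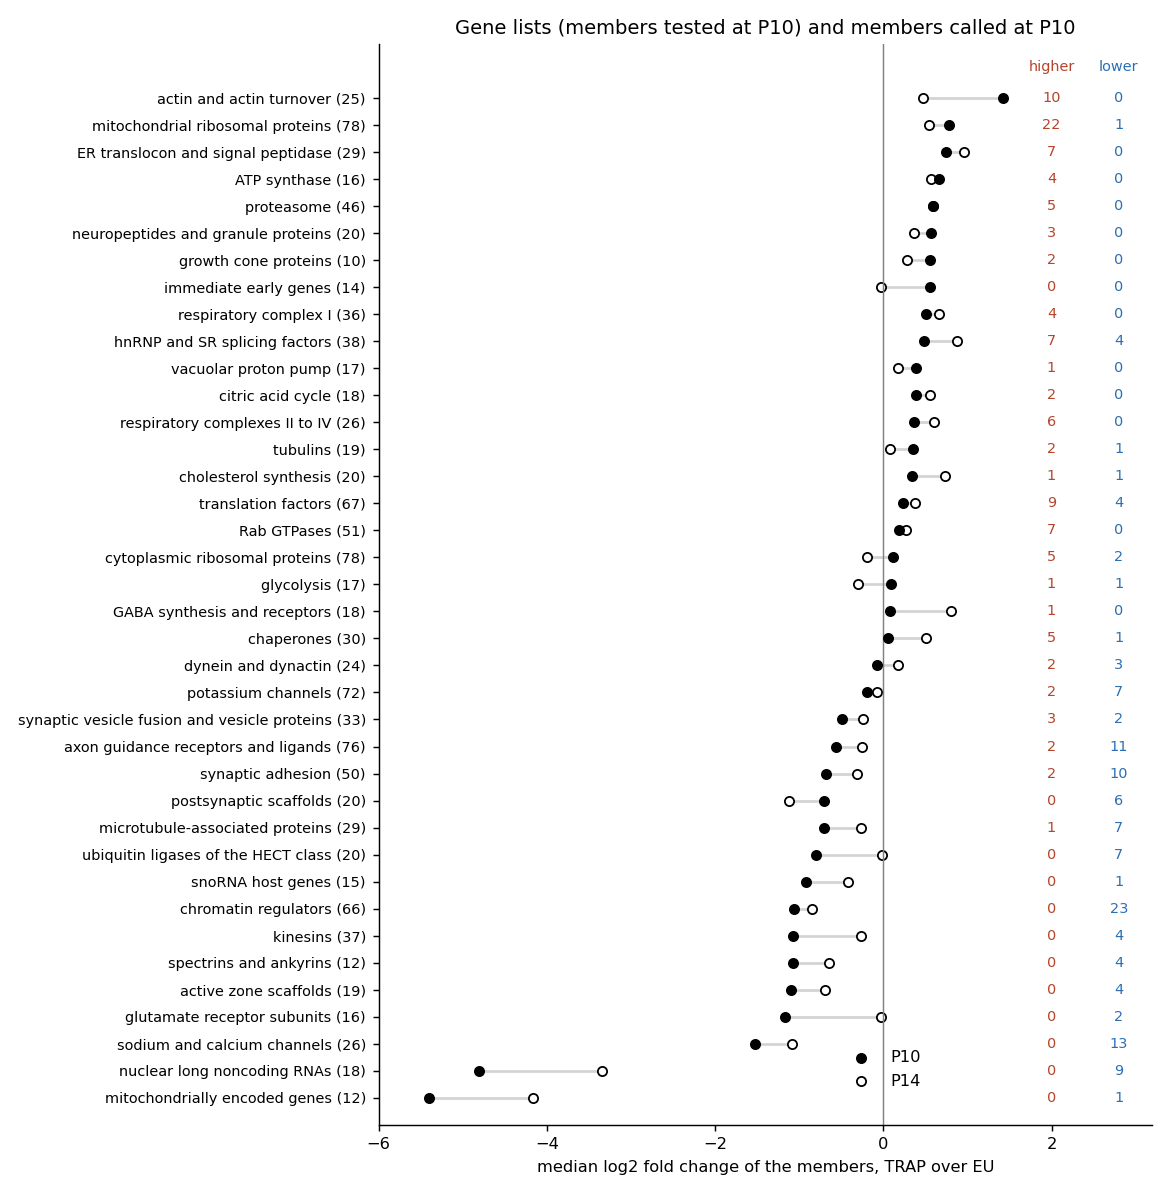
Median log2 fold change (TRAP over EU) of the tested members of each gene list at P10 (filled) and P14 (open), with the number of members tested and those called at P10. Actin turnover lies furthest right at 1.42, and nuclear long noncoding RNAs (-4.81) and mitochondrially encoded genes (-5.4) lie furthest left.

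Markers of cell types in the tissue were measured in both captures. Retinal ganglion cell markers summed to 2519, 3259 and 2265 CPM in TRAP and 4439, 4698 and 3242 CPM in EU, with 0 higher and 1 lower of 16. The lower one was Ebf1, a transcription factor (-1.2, adjusted p = 0.046), and its call ended without any 1 of the 6 libraries, with adjusted p between 0.062 and 0.15. Gap43, a growth cone protein, had 673, 825 and 593 CPM in TRAP and 1780, 1690 and 880 CPM in EU and was not called (adjusted p = 0.081). Stmn2, another axonal growth protein, had 822, 1310 and 712 CPM in TRAP and 890, 1350 and 727 CPM in EU. Isl1 and Isl2 did not pass the filter. In a bulk sample, fewer cells of a type and less RNA per cell cannot be told apart.

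Genes of cells that do not belong to the retinal projection were present in both captures. Astrocyte and radial glia markers summed to 14530, 11860 and 22840 CPM in TRAP and 10700, 6871 and 9427 CPM in EU. Of 15 markers 2 were higher (13.3%, against 6.64% of all genes) and 1 lower (6.67%, against 11.0%). There were 0 higher without EU replicate 1 and 5 without TRAP replicate 2. Oligodendrocyte precursor markers summed to 2355, 1472 and 2141 CPM in TRAP and 902, 1008 and 773 CPM in EU. Of 12 markers 2 were higher (16.7%) and 1 lower (8.33%), and 1 was higher without EU replicate 1 or 2. Olig1, a transcription factor of that lineage, had 1790, 887 and 1280 CPM in TRAP and 240, 298 and 212 CPM in EU (2.4 ± 0.39, adjusted p = 0.0037). Its TRAP values all exceed its EU values, and Olig1 made up the largest part of the precursor sums in TRAP. The precursor list had a median log2 fold change of 0.24, with 3 members lower in TRAP without overlap and 2 higher. The member called lower was Cspg4, whose call ended without EU replicate 1 (adjusted p = 0.13).

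Microglia markers summed to 959, 764 and 1179 CPM in TRAP and 454, 418 and 423 CPM in EU. Of 14 markers 4 were higher (28.6%, against 6.64% of all genes) and 0 lower. There was 1 higher without EU replicate 1 or 3, and 2 without EU replicate 2. Endothelial and pericyte markers summed to 1098, 746 and 1029 CPM in TRAP and 567, 454 and 434 CPM in EU. Of 14 markers 2 were higher and 2 lower (14.3% each way, against 6.64% and 11.0% of all genes). No endothelial marker was lower without any 1 of the EU libraries or TRAP replicates 2 and 3. Cldn5, the tight junction protein of brain vessels, had 398, 294 and 554 CPM in TRAP and 144, 89.7 and 86.7 CPM in EU (1.96 ± 0.39, adjusted p = 0.008). Mature myelin markers had overlapping sums, 3510, 1624 and 2789 CPM in TRAP and 2126, 1751 and 2801 CPM in EU. Transcription factors of midbrain neurons summed to 726, 857 and 665 CPM in TRAP and 886, 640 and 768 CPM in EU, with 1 higher (Sox14) and 1 lower (Lhx1) of 13. Without any 1 of the EU libraries 0 were higher, and without TRAP replicate 1 there were 3. In the fits that left out 1 library, 1 was lower without EU replicate 3 and 0 in the other 5.

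Rod photoreceptor markers, a sign of carry-over from the eye, were near 0: 3 of 14 were tested, and they summed to 4.58, 4.82 and 1.31 CPM in TRAP and 15.6, 15.4 and 40.3 CPM in EU. Red cell genes varied within each capture, 4214, 10480 and 41260 CPM in TRAP and 14620, 8203 and 4405 CPM in EU. The part of glial and vascular RNA in the results of the other lists was not tested.

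**Figure D5:**
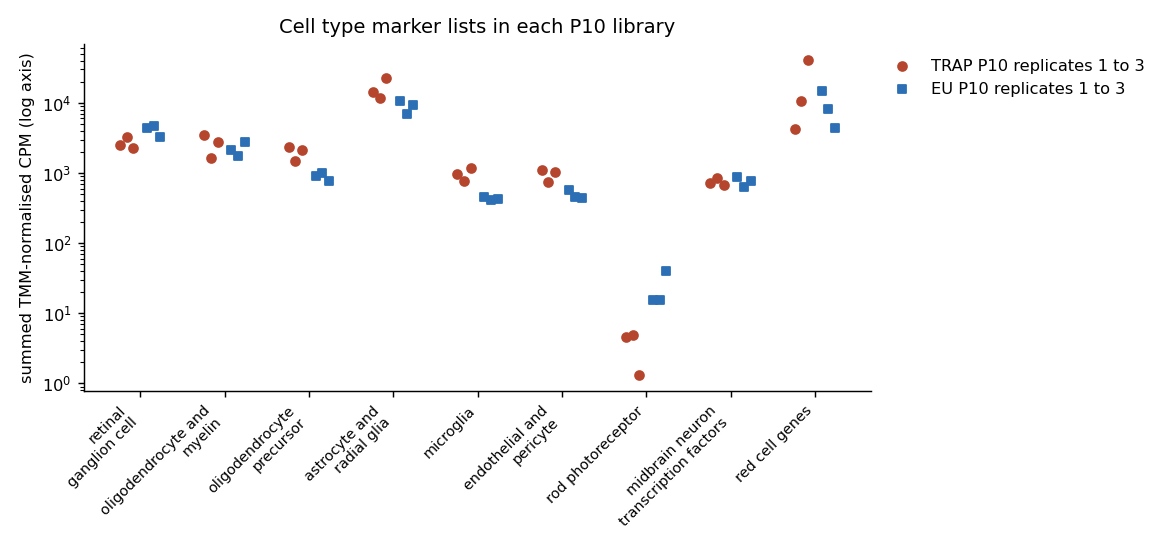
Summed TMM-normalised CPM (log axis) of each cell type marker list in every P10 library, TRAP as circles and EU as squares, 3 libraries each. The sums of astrocyte and radial glia, precursor, microglia and endothelial markers lie higher in all TRAP libraries than in all EU libraries. Olig1 makes up the largest part of the precursor sums in TRAP. Rod marker sums lie at 40.3 CPM or less.

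The P14 comparison gave the nearest measure of how particular P10 was. At P14, 933 of 16277 genes were higher (5.73%) and 1391 lower (8.55%). Over the 14963 genes tested at both ages, 290 were called higher at both, 28.0% of those at P10 and 32.9% of those at P14. The lower genes overlapped in 789, 54.0% of those at P10 and 65.9% of those at P14. The sign at P14 matched that at P10 for 93.2% of the genes called higher at P10 and 96.0% of those called lower. The P14 and P10 libraries are separate, with no shared control.

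The test of the difference between ages called 0 of 18660 genes (0.0%) by edgeR, with 2056 at an unadjusted p under 0.05. DESeq2 called 71 genes with a higher and 93 with a lower TRAP to EU ratio at P10. The fitted values of a few genes at both ages follow. Eif1ax had a log2 fold change of 3.37 at P10 and 0.83 at P14 (adjusted p = 0.14 at P14), and the difference of 2.59 ± 0.52 was not called (adjusted p = 0.36). Kmt2a had -3.31 at P10 and -3.19 at P14 (adjusted p = 0.0025 at P14). Mirg had -7.59 at P10 and -7.79 at P14 (adjusted p = 0.0005 at P14). Of the other microRNA hosts named, Rian had -5.92 and -6.32 (adjusted p = 0.0005 at P14), and C78859 was also lower at P14 (adjusted p = 0.0005). A230057D06Rik had -6.55 at P10 and -2.45 at P14, where it was not called (adjusted p = 0.16). Ndfip1 had 4.14 at P10 and 3.13 at P14 (adjusted p = 0.0082 at P14).

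The classes kept their direction at P14. Of the intronic noncoding genes tested at P10, 203 were also tested at P14, and 154 were lower and 0 higher there. Of the receptor genes 108 were also tested, with 60 lower and 0 higher. Over all 14963 genes tested at both ages, 1198 were lower at P14. Most members of both classes passed the P10 filter through EU, so these counts are descriptions. By coding length, the shortest quintile at P14 had 310 higher and 57 lower genes with a median log2 fold change of 0.46, and the longest 45 higher and 291 lower with a median of -0.44. The medians of the quintiles in between were 0.31, 0.19 and -0.05 at P14.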

How the data were processed

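RNA of the superior colliculus was measured in 6 P10 libraries (3 axon-TRAP, 3 EU) and, for the comparison between ages, 6 P14 libraries, grouped by their labels; P14 depths were 21.5 to 26.0 M counts. Per the submitters' processing notes, the authors quantified reads with Salmon on mm10; no version, annotation or strand setting is stated there. The authors deposited estimated counts per gene, which were rounded to whole numbers here, and TPM values per gene, used for 1 alternative as log2(TPM + 1). Symbols, positions and gene classes came from GENCODE M21 (GRCm38), which matched 54097 of 54331 IDs.

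Genes were kept with filterByExpr, scaled by TMM and tested two-sided with edgeR 4.0.16 (quasi-likelihood, Benjamini-Hochberg over all tested genes, R 4.3.3), checked on simulated data. A call is an adjusted p under 0.05. Alternatives used limma 3.58.1, DESeq2 1.42.0, other scaling, no filter, a removed length trend, a replicate block and leaving out each library. Errors of log2 fold changes are SE with 3 libraries per capture; CPM precision is limited by depth and intervals would cover counting error only.

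Members and gene lists were chosen with earlier results of these data known, and the receptor, intronic, microRNA host and length descriptions after values were seen. Named genes were the largest 10 calls in each direction (a log2 fold change of 1 or more either way, a mean log2 CPM of 4 or more, groups apart, no predicted symbol), 3 called members per list by adjusted p, and 3 markers per list by level; not all are reported. Lists are described by counts and medians, with no set test.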

Additional observations from a re-analysis of the deposited data

How the results depend on the processing

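The P10 comparison called 1045 genes higher and 1735 lower. DESeq2 called 1702 higher, no filter 1575, limma on log2(TPM + 1) 682 and the replicate block 524 higher genes; the number lower was 924 with the block. Leaving out 1 library gave 378 to 1214 higher and 883 to 1671 lower genes. For lower genes DESeq2 gave 2235, the unfiltered fit 2298, limma 2377; the number was 1699 with RLE size factors, 1491 with the length trend removed and 1586 without CT010467.1 and mitochondrial genes. The number higher under these last 3 was 1105, 1279 and 1332. Same-numbered TRAP and EU libraries did not deviate together (correlations -0.0712, -0.0724 and -0.2201), so the block rests on numbers alone. The median log2 fold change over all genes was -0.08, and it moved to 0.11 with the length trend removed, -0.33 with limma, -0.31 with no filter, and 0.06 both without CT010467.1 and mitochondrial genes and without EU replicate 2. For the difference between ages, edgeR called 0 genes in each direction with TMM, RLE, the block or all 5 P14 libraries; DESeq2 called 71 and 93, and no filter 128 and 207. Leaving out 1 library gave 0 to 26 with a higher ratio at P10 and 0 to 107 with a lower one, with 17 and 107 without P14 EU replicate 5 and 26 and 1 without P10 TRAP replicate 1. Of the values of named genes under these settings, 1714 kept direction and side of the threshold, 275 lost the call, 24 gained it and 0 turned. The cause of these shifts was not tested. Depth limits genes under about 3 counts, most of all in the EU libraries.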
